A study of Mus musculus with 6 samples.

Results

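The genes described here are 6 members of the epidermal growth factor (EGF) system, Areg, Hbegf, Ereg, Adam17, Adam10 and Rhbdf2, found by gene symbol among the 18543 genes of the deposited count table. All 6 had a row. They are 3 ligands and 3 genes of the shedding machinery that frees such ligands. The RNA came from group 2 innate lymphoid cells (ILC2s), tissue lymphocytes that answer epithelial alarmins, sorted from the lungs of 8-week C57BL/6 mice. Of 6 libraries, 3 were labelled Atg5-/- (KO 1 to KO 3) and 3 wild-type (WT 1 to WT 3). All mice, of both genotypes, received 0.5 µg of recombinant mouse IL-33 intranasally on each of 3 days, and cells were taken on day 4. Atg5 encodes an autophagy conjugation factor. Which cells carried the deletion, which exons it removed, the sort gate and any pooling of mice are not stated in the labels. These labels do not say that each library came from its own mouse, so the tests measure the spread between these libraries, which may be technical.

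EGF family ligands are made as membrane-anchored precursors whose extracellular EGF-like module is cut off by a metalloprotease and then binds ErbB receptors on the same or neighbouring cells. ADAM17 is the main sheddase of amphiregulin (Areg), HB-EGF (Hbegf), epiregulin (Ereg) and TGF-alpha (Tgfa), whereas ADAM10 releases EGF and betacellulin (Btc). The inactive rhomboid iRhom2, the product of Rhbdf2, carries ADAM17 from the endoplasmic reticulum to the cell surface. Amphiregulin is the ligand for which lung ILC2s are best known, as a factor in the repair of airway epithelium.

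The receptor-binding module of 4 of these ligands is shown as coding sequence, because it is the part that makes them one family and the part that shedding releases. A spacing of 6 cysteines (7, 4 or 5, 10 to 13, 1 and 8 residues apart) was searched in the longest annotated coding sequence of each of 21877 mouse genes (GENCODE vM21), and 16 genes (0.0731%) held it. Cysteine codons are in capitals, and each run has 108 bases. It spans coding bases 415 to 522 in Areg (chromosome 5), 205 to 312 in Btc (chromosome 5), 181 to 288 in Ereg (chromosome 5) and 136 to 243 in Tgfa (chromosome 6).
Areg: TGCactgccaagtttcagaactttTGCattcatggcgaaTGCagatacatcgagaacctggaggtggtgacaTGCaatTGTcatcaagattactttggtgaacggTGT
Btc: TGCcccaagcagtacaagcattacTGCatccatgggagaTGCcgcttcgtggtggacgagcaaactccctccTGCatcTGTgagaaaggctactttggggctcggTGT
Ereg: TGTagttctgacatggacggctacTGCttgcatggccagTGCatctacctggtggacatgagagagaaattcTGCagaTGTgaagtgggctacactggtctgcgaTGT
Tgfa: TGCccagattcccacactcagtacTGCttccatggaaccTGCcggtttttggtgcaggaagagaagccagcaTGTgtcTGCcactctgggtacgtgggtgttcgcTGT

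Areg shared 62 of the 108 bases with Btc, 58 with Ereg and 51 with Tgfa. The cysteine framework common to these 4 was set by the search, and the shared bases include those of the cysteine codons. Between the cysteines the bases diverge.

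The libraries held 28827545 to 33662979 estimated counts. Levels are given in CPM (counts scaled to a common total per library, adjusted by TMM, a method that aligns library composition), and 3 counts correspond to 0.0892 to 0.104 CPM. The targeted gene did not follow the labels. Atg5 was at 23.0, 25.6 and 52.2 CPM under the KO label, against 66.3, 71.8 and 21.8 CPM under the WT label. The library labelled WT 3 thus lay below all 3 labelled KO, and that labelled KO 3 was the highest of its label. Over 14052 genes the library labelled WT 3 correlated at 0.991 with that labelled KO 1 and at 0.946 with that labelled WT 1. This is a description across genes, which are not independent replicates. Because of these values, every direction is one between labels. Fitted differences are given with all 6 libraries and in a 5-library fit that omits the one labelled WT 3. That library was chosen by its values in these same data, and leaving out a library that resembles the other label enlarges differences. Calls in the 5-library fit are therefore descriptions and not independent support. The library labelled KO 3 is kept in that fit. Values under a label follow the library numbers 1, 2 and 3. The 9 ILC2 markers had a summed level of 8870 to 12700 CPM under the KO label and 12700 to 14900 CPM under the WT label (9 of 9 measured), most of it Il5, at 5352 to 9194 CPM under the KO label and 8242 to 9148 CPM under the WT label. Gata3, the lineage factor, was at 900.1 to 927 CPM under the KO label and 964 to 1559 CPM under the WT label. The surface marker Thy1 was low, at 0.670 to 2.88 CPM under the KO label and 1.76 to 9.85 CPM under the WT label. Il13 had the higher mean under the KO label, at 367, 366.5 and 286 CPM, against 99.0, 117 and 355 CPM under the WT label. Il7r differed little, at 97.9 to 106.5 CPM under the KO label and 93.1 to 103 CPM under the WT label. Rora, Id2, Il1rl1 and Ptprc had lower means under the KO label. The markers given with values were singled out after those values were seen.

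Over all 6 libraries the main test, edgeR's quasi-likelihood test with Benjamini-Hochberg adjustment, called 0 of 14052 genes (0%) at the 0.05 threshold and 0 of the 5 members it tested. At an unadjusted p under 0.05 there were 2026 genes, and limma-voom also called 0. The members had log2 differences below 0 in 5 of 5 cases, against 48.9% of all genes tested. The sixth member, Ereg, did not pass the filter on low counts. DESeq2 on the same counts called 308 genes lower in KO (2.19%), and 1 member, Rhbdf2, among them. The 5-library fit, also by edgeR, called 33.9% of 14743 genes, and 16.1% of the 14743 as lower in KO. Of the 6 members tested there, Adam10 and Rhbdf2 fell and none rose.

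**Figure D1:**
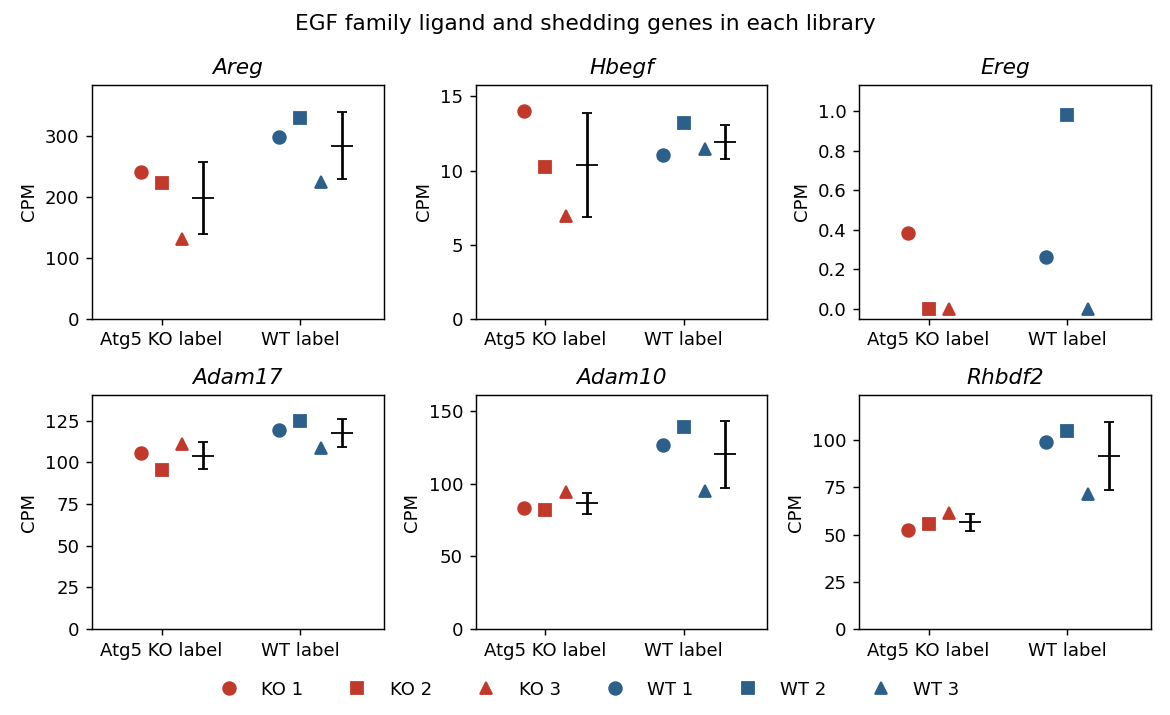
CPM (vertical axes, linear) of the 6 genes in each library, with libraries labelled KO on the left and those labelled WT on the right. Black marks give the mean and SD of 3 libraries, left out for Ereg. Areg and Hbegf are lowest in the library labelled KO 3. Areg, Adam10, Adam17 and Rhbdf2 are highest in those labelled WT 1 and WT 2.

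Areg, at chr5:91139599-91148432 on the forward strand of mm10, was the dominant ligand transcript. Its level was 239.9, 223 and 131 CPM under the KO label, against 298, 329.8 and 224 CPM under the WT label. The groups overlapped, because the library labelled KO 1 lay above that labelled WT 3, and the lowest value belonged to the library labelled KO 3. Means were 198 ± 58.9 CPM for KO and 284 ± 54.5 CPM for WT (SD, n = 3 each). The log2 difference of -0.52 (SE 0.27, 95% interval -1.15 to 0.11) did not pass (adjusted p = 0.366, edgeR). It was -0.66 in the 5-library fit (adjusted p = 0.0716) and -0.29 without the library labelled KO 3 (adjusted p = 0.526). Without both libraries numbered 3, Areg fell by 0.43 (SE 0.08, adjusted p = 0.00146), in a comparison of 2 libraries with 2 where 22.7% of all genes were called lower. That fit too leaves out libraries whose values were known, so its calls are descriptions and not independent support. In bulk RNA, fewer cells that make a transcript and less of it per cell cannot be told apart.

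Basophils and mast cells are other sources of amphiregulin. Their 6 markers summed to 10.4, 12.7 and 3.03 CPM under the KO label, against 20.4, 14.4 and 14.1 CPM under the WT label. Most of that sum came from the mast cell protease genes Tpsb2, at 2.58 to 7.77 CPM under the KO label and 4.88 to 6.92 CPM under the WT label, and Cpa3, at 0.447 to 3.43 CPM under the KO label and 1.86 to 8.98 CPM under the WT label. Fcer1a, a subunit of the high-affinity IgE receptor, was at 0 to 0.381 CPM under the KO label and 0.497 to 2.46 CPM under the WT label. Of the 6 markers Ms4a2 alone was under 1 CPM in every library, and it was at 0 in all but that labelled WT 2. These markers were singled out after their values were seen. The part of these cells in the Areg values was not tested.

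The 250 bases before the Areg start (RefSeq, GRCm38.p6, chr5:91139349-91139598, forward strand) are shown because Areg carries most of the ligand signal. Capitals mark matches to the motifs searched on both strands, which were the TATA box (TATAAA), the cAMP response element (TGACGTCA), its core (TGACG), the AP-1 site (TGANTCA), the GC box (GGGCGG) and a GATA site (AGATAA).
Areg: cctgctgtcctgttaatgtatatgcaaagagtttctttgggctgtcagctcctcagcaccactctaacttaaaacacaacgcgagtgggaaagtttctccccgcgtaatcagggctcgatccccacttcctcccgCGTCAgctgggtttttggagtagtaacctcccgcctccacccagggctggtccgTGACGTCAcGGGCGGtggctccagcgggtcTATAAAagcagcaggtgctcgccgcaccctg

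The Areg window held 1 TATA box that begins 31 bases before the start, 1 full cAMP response element that begins 61 bases before it and 1 GC box that begins 52 bases before it. The core motif matched 3 times, 2 of them inside the full element. Among 32536 promoter windows of this length, 12.3% held the TATA letters, 1.56% the full element, 17.9% its core and 33.0% the GC box. The AP-1 and GATA letters, present in 6.73% and 9.97% of windows, were not in this window. Of the 5 members looked up, 3 had a window, and those of Adam10 and Adam17 held neither TATAAA nor TGACGTCA. The windows of Adam10 and Adam17 were richer in G and C, at 74.0% and 70.4%, against 57.2% in Areg and a median of 52.4% over all windows.

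Hbegf, which encodes heparin-binding EGF-like growth factor, lies at chr18:36504929-36515805 on the reverse strand. It was at 14.0, 10.2 and 6.96 CPM under the KO label, against 11.05, 13.2 and 11.5 CPM under the WT label. The highest and the lowest of the 6 values both carried the KO label, so the WT values lay inside the KO range. The log2 difference was -0.20 (SE 0.29, 95% interval -0.88 to 0.48, adjusted p = 0.713, edgeR). It was -0.22 in the 5-library fit (adjusted p = 0.639), and its sign turned to 0.03 without the library labelled KO 3 (adjusted p = 0.959). The library labelled KO 3 differed from the other libraries labelled KO by -0.74 log2 units for Hbegf and by -0.82 for Areg.

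Ereg, which encodes epiregulin, is the neighbour of Areg on chromosome 5 (91074622 to 91093646, forward strand), with 45952 bases between the pair. Its estimated counts were 11, 0 and 0 under the KO label, against 8.37, 29.7 and 0 under the WT label. These are at most 0.982 CPM, and a count of 0 allows up to 0.104 CPM in any of these libraries. Ereg was therefore low in every library and at 0 in some, unlike its neighbour. With all 6 libraries and no count filter its adjusted p was 0.670 (edgeR). In the 5-library fit, where it passed the filter, the log2 difference was -2.29 (SE 1.56, adjusted p = 0.307).

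Between genes, levels were compared per kilobase of exon. On that scale Areg had 197.5, 184 and 107.5 CPM per kilobase under the KO label and 245, 271 and 184 CPM per kilobase under the WT label. It ranked between position 161 and position 551 of 18009 genes with a known exon length. Hbegf had 1.44 to 2.89 CPM per kilobase under the KO label and 2.29 to 2.73 under the WT label. Of the summed level of the 9 EGF family ligands with a row (Areg, Hbegf, Ereg, Egf, Tgfa, Btc, Epgn, Nrg2 and Nrg4), Areg made up 98.2%, 98.7% and 98.2% under the KO label. Its share was 98.0%, 97.9% and 98.4% under the WT label. The ligand pool was thus almost entirely Areg in every library.

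**Figure D2:**
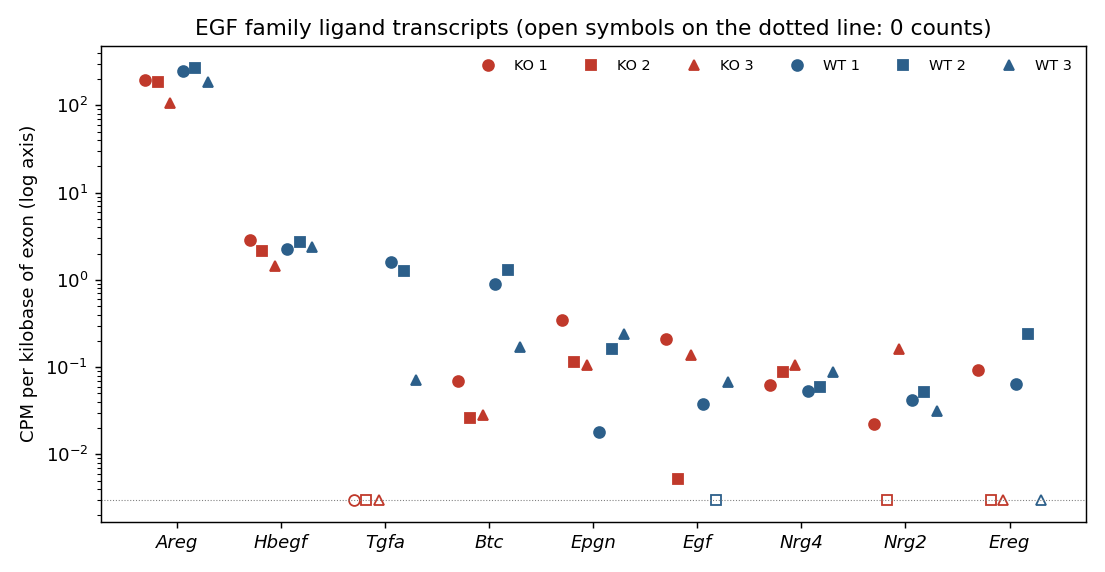
CPM per kilobase of exon (log axis) of 9 EGF family ligands in each library, libraries labelled KO left of those labelled WT for each gene. Open symbols on the dotted line stand for 0 counts. Areg lies between 107.5 and 271, and Tgfa has 0 counts in the 3 libraries labelled KO.

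Of 8 other ligands on the list, 6 had a row and 4 were tested. None passed with all 6 libraries, and 2 of 4 fell in the 5-library fit, where 16.1% of all genes were called lower. Their median log2 difference was -1.95 with all 6, beside 0.02 over all genes, but only 2 of the 4 were below 0. Egf and Nrg4 were above 0, at 1.74 and 0.35 (adjusted p = 0.507 and 0.721, edgeR). Tgfa, which encodes TGF-alpha, had no count under the KO label, against 318, 254 and 14 counts under the WT label. As levels, these WT values were 10.4, 8.31 and 0.464 CPM. The WT mean of 6.40 CPM makes the KO level at least 61.6-fold lower, taking 3 counts per library as the floor. Against the library labelled WT 3 alone it was at least 4.47-fold lower. Tgfa did not pass with all 6 libraries (adjusted p = 0.342) and fell in the 5-library fit (adjusted p = 0.000334, edgeR).

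Btc, which encodes betacellulin, had 9, 4 and 4 counts under the KO label, against 124, 180 and 23 counts under the WT label. All WT values were above all KO values, a pattern seen in 9.22% of all genes tested. The library labelled WT 3 was nearer to the KO range. The log2 difference of Btc was -4.25 (SE 0.87, adjusted p = 0.342, edgeR) and -4.72 in the 5-library fit (SE 0.53, adjusted p = 0.000732). Of the per-kilobase ligand signal, Tgfa held at most 0.641% and Btc at most 0.470% in any library.

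With all 6 libraries Rhbdf2 had the largest log2 difference of the 5 members tested, although without the library labelled KO 1 it was -0.65, against -0.68 for Areg. It lies at chr11:116598165-116627019 on the reverse strand. Its level was 52.5, 55.7 and 61.2 CPM under the KO label, against 99.0, 105 and 71.3 CPM under the WT label. The groups did not overlap, and the library labelled WT 3 lay between the other libraries labelled WT and those labelled KO. Means were 56.5 ± 4.37 CPM for KO and 91.7 ± 17.9 CPM for WT (SD, n = 3 each). The log2 difference of -0.70 (SE 0.18, 95% interval -1.12 to -0.28 before adjustment) did not pass edgeR (adjusted p = 0.342) and passed DESeq2 (-0.72, adjusted p = 0.0378). Rhbdf2 fell by 0.85 in the 5-library fit (SE 0.11, adjusted p = 0.00112, edgeR).

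Adam10, at chr9:70678997-70780229 on the forward strand, was at 83.3, 81.6 and 94.4 CPM under the KO label, against 127, 139 and 94.8 CPM under the WT label. The groups did not overlap, with 94.4 CPM in the library labelled KO 3 against 94.8 CPM in that labelled WT 3. Rhbdf2 and Adam10 were thus 2 of 5 members tested in which every library labelled KO lay below every one labelled WT, a pattern seen in 9.22% of all genes. For Adam10 the log2 difference was -0.48 (SE 0.17, 95% interval -0.88 to -0.07 before adjustment, adjusted p = 0.342, edgeR), and it fell by 0.61 in the 5-library fit (SE 0.10, adjusted p = 0.00409).

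Adam17, the sheddase of amphiregulin itself, varied least of the members. It lies at chr12:21323509-21373632 on the reverse strand. It was at 106, 95.2 and 111 CPM under the KO label, against 119.6, 125 and 108 CPM under the WT label. The groups overlapped, and the highest library was 1.31 times the lowest. Its log2 difference was -0.18 (SE 0.13, 95% interval -0.48 to 0.13, adjusted p = 0.467, edgeR) and -0.23 in the 5-library fit (adjusted p = 0.129). Without both libraries numbered 3 Adam17 fell by 0.27 (adjusted p = 0.0256, edgeR), where 22.7% of all genes were called lower. That call is a description and not independent support. Per kilobase of exon, Adam17 had 13.3 to 15.55 CPM under the KO label and 15.2 to 17.5 under the WT label, and Adam10 had 16.6 to 19.2 under the KO label and 19.3 to 28.3 under the WT label. The exon union was 7154 bases for Adam17 and 4913 for Adam10, but their longest transcripts were 4469 and 4593 bases, so the order of the 2 genes depends on the length used and none is given.

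**Figure D3:**
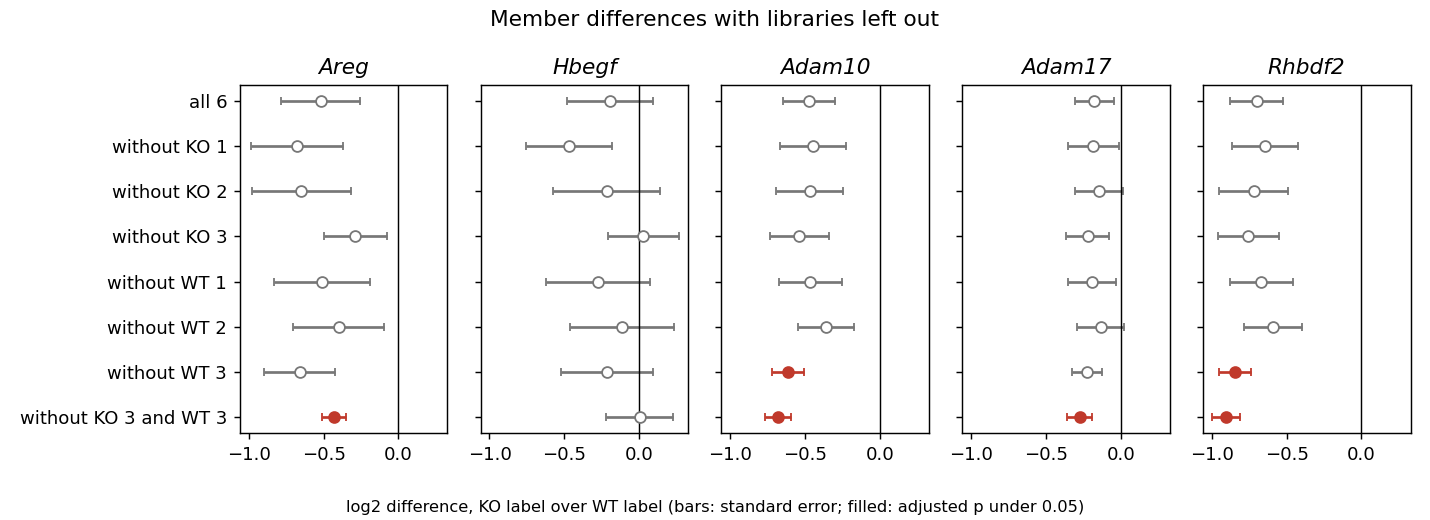
Log2 difference, KO label over WT label (horizontal axes), of the 5 tested members in the edgeR fit to all 6 libraries and in fits with libraries left out (rows). Bars are standard errors, and filled points passed an adjusted p of 0.05. Adam10 and Rhbdf2 passed in the 5-library fit, and Hbegf crossed 0 without the library labelled KO 3.

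Ratios of counts within a library do not depend on how libraries are scaled, although their size depends on gene length. Rhbdf2 over Adam17 was 0.497, 0.585 and 0.550 under the KO label, against 0.828, 0.840 and 0.658 under the WT label. Adam10 over Adam17 was 0.787, 0.857 and 0.849 under the KO label, against 1.06, 1.11 and 0.874 under the WT label. Neither ratio overlapped between labels. With 3 libraries a group the two-sided exact permutation test cannot go below 0.1, the value for both ratios, or 0.3 when adjusted over the 6 ratios computed. Areg over Adam17 was 2.27, 2.34 and 1.17 under the KO label, against 2.49, 2.64 and 2.06 under the WT label. Those ranges overlapped (exact permutation p = 0.4, 0.6 when adjusted). So did those of the other ratios computed, Areg over Adam10, over Hbegf and over Rhbdf2.

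As a measure of how alike the members were across libraries, the root mean square difference of log2 CPM, centred on each gene's mean, was taken over the 6 libraries. Its median between a member and all genes of at least 10 CPM was 0.49 for Areg, 0.41 for Hbegf, 0.45 for Rhbdf2, 0.38 for Adam10 and 0.28 for Adam17. The difference was 0.12 between Adam10 and Rhbdf2, the most alike pair, and 0.23 between Areg and Hbegf. The least alike pair, Hbegf and Rhbdf2, was at 0.43. Among 8348 genes with at least 10 CPM on average, those nearest to Areg were Tagln2 (0.06), Nnt (0.08), Tmem173, Smc4 and Ska2 (0.08 each). Tagln2, an actin-binding protein gene, was at 744, 758 and 452 CPM under the KO label and 1017, 1072 and 775 CPM under the WT label. Nearest to Hbegf were Brip1, Zfp367 and Erlin1, and nearest to Adam17 were Srp72, Rab3gap2 and Oat. Adam10 had Parp3, Rpn2 and Hsp90b1 as its nearest genes, and Rhbdf2 had Anks1, Sh2b1 and Parp10. The distances are descriptions of 6 libraries.

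The lists of related genes below were counted in the same fits. In the 5-library fit 17.7% of all 14743 genes were called higher and 16.1% lower, so calls in both directions are the general pattern there. Of the 60 list genes tested in that fit 12 were higher and 20 lower, and nothing is read from these counts about any one list. Of 15 listed genes for partners, maturation and inhibition, 10 were tested, 0 passed with all 6 libraries (median log2 difference -0.19), and in the 5-library fit, 2 of 10 rose and 3 fell. Frmd8 encodes the protein that holds iRhom and ADAM17 at the cell surface. It was at 124, 121 and 116 CPM under the KO label, against 208, 224 and 134 CPM under the WT label (log2 difference -0.65, SE 0.21, adjusted p = 0.342, edgeR). Frmd8 fell by 0.84 in the 5-library fit (adjusted p = 0.000519). Tspan14, a tetraspanin that escorts ADAM10, was at 46.2, 37.0 and 48.7 CPM under the KO label, against 145, 154 and 44.8 CPM under the WT label. The library labelled WT 3 was within the KO range for this gene. Its log2 difference was -1.38 with all 6 libraries (SE 0.44, adjusted p = 0.342, edgeR), and it fell by 1.76 in the 5-library fit (SE 0.13, adjusted p = 0.000173). Furin encodes the convertase that removes the ADAM prodomain. It was at 4195, 4039 and 4668 CPM under the KO label, against 2395, 2507 and 4350 CPM under the WT label, with 0.48 from all 6 libraries (adjusted p = 0.381), and rose by 0.82 in the 5-library fit (adjusted p = 0.000748).

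Rhbdf1, which encodes iRhom1, was picked out after its values were seen. It had 3.71, 6.31 and 8.55 CPM under the KO label, against 2.75, 2.16 and 5.40 CPM under the WT label. It was at 0.85 with all 6 libraries (adjusted p = 0.378, edgeR) and rose by 1.34 in the 5-library fit (SE 0.41, adjusted p = 0.0429). In that fit Rhbdf2 fell and Rhbdf1 rose, beside 16.1% of all genes called lower and 17.7% called higher. With all 6 libraries the groups overlapped for Rhbdf1, as the library labelled WT 3 lay within the KO range.

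Of 7 other membrane ADAM proteases, 5 were tested and 0 passed with all 6 libraries (median -0.57), and in the 5-library fit, 1 of 6 rose and 3 fell, beside 17.7% and 16.1% of all genes. Adam8, expressed in activated leukocytes, was at 669.9, 728 and 902 CPM under the KO label and 670.3, 599 and 706 CPM under the WT label. It passed in neither fit, at 0.22 with all 6 libraries and 0.28 in the 5-library fit (adjusted p = 0.500 and 0.166, edgeR). Adam19 was at 32.7, 41.0 and 42.7 CPM under the KO label, against 143, 136 and 40.5 CPM under the WT label, with -1.46 from all 6 libraries (adjusted p = 0.342, edgeR), and fell by 1.84 in the 5-library fit (adjusted p = 0.000149). Adam9 and Adam15 were at -0.57 and -0.67 with all 6 libraries (adjusted p = 0.342 for both) and fell by 0.69 and 0.86 in the 5-library fit (adjusted p = 0.002 and 0.00132). Their values labelled WT 3 lay between the KO range and the other WT values.

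Among 12 listed ErbB receptors and negative regulators 10 were tested and 0 passed with all 6 libraries (median 0.10), and in the 5-library fit, 2 of 10 rose and 2 fell, beside 17.7% and 16.1% of all genes. Errfi1, a feedback inhibitor of EGFR, was at 12.8, 14.3 and 19.2 CPM under the KO label, against 7.05, 5.66 and 10.1 CPM under the WT label. Its log2 difference was 1.02 with all 6 libraries (SE 0.29, adjusted p = 0.342, edgeR). Errfi1 rose by 1.29 in the 5-library fit (adjusted p = 0.0078). Socs5, a suppressor of cytokine and EGFR signalling, was at 1.39, 2.29 and 0.606 CPM under the KO label, against 7.80, 6.41 and 1.56 CPM under the WT label, with log2 differences of -1.88 with all 6 libraries (adjusted p = 0.342) and -2.30 in the 5-library fit (adjusted p = 0.0125). Of the ubiquitin ligases that turn over receptors, Cblb was at -0.52 with all 6 libraries (adjusted p = 0.366) and fell by 0.74 in the 5-library fit (adjusted p = 0.0128). Cbl passed in neither, at 0.21 and 0.14 (adjusted p = 0.480 and 0.496). Egfr, which was picked out after its values were seen, was at 5.16, 3.84 and 6.83 CPM under the KO label, against 1.57, 1.34 and 7.72 CPM under the WT label. Its log2 difference was 0.57 with all 6 libraries (adjusted p = 0.657, edgeR), and it rose by 1.86 in the 5-library fit (adjusted p = 0.0084).

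**Figure D4:**
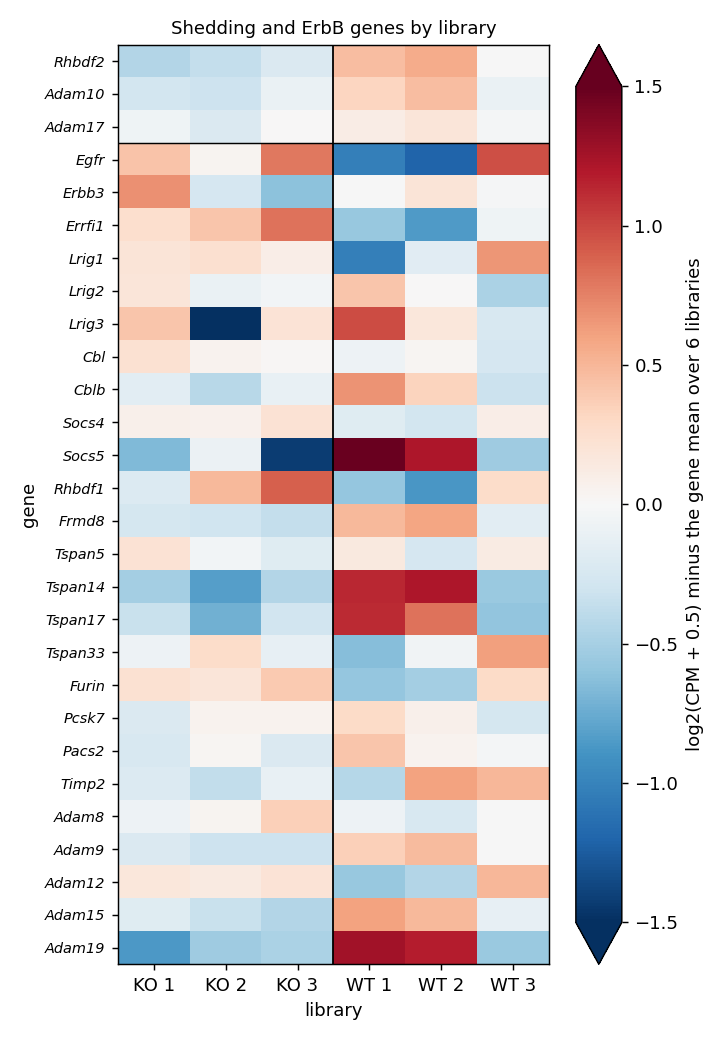
Log2(CPM + 0.5) minus each gene's mean over the 6 libraries (colour, clipped at 1.5 either way) for 3 members above the line and the tested genes of 3 lists below it. Columns are libraries, those labelled KO left of those labelled WT. The library labelled WT 3 resembles the KO columns for Tspan14, Tspan17 and Adam19 and is intermediate for Rhbdf2.

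Of 20 listed shed proteins that are not EGF ligands, 16 were tested, 0 passed with all 6 libraries (median 0.55), and 5 of 16 rose and 3 fell in the 5-library fit, beside 17.7% and 16.1% of all genes. Notch2, a receptor that ADAM10 cleaves after ligand binding, was at 24.6, 21.2 and 22.3 CPM under the KO label, against 60.2, 60.3 and 31.6 CPM under the WT label. It was at -1.16 with all 6 libraries (adjusted p = 0.342, edgeR) and fell by 1.40 in the 5-library fit (adjusted p = 0.000273). Icosl, the ligand of ICOS, was at -0.98 with all 6 (adjusted p = 0.344) and fell by 1.25 in the 5-library fit (adjusted p = 0.0253). Tnfrsf1b, a TNF receptor, and Cd44, the hyaluronan receptor, were at 0.64 and 0.57 with all 6 libraries (adjusted p = 0.358 and 0.372) and rose by 1.12 and 1.02 in the 5-library fit (adjusted p = 0.00022 and 0.00021). For both, the WT 3 value was close to the KO values, with Cd44 at 411, 408 and 402 CPM under the KO label and 198, 205 and 421 CPM under the WT label.

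Of 14 tested receptors and factors upstream of Areg, 0 passed with all 6 libraries (median -0.14), and 2 of 14 rose and 7 fell in the 5-library fit, beside 17.7% and 16.1% of all genes. Crem encodes a cAMP-responsive transcription factor, whose binding was not measured. It was at 95.2, 85.6 and 75.2 CPM under the KO label, against 165, 174 and 96.1 CPM under the WT label. Its log2 difference was -0.76 with all 6 libraries (adjusted p = 0.342, edgeR), and it fell by 0.98 in the 5-library fit (adjusted p = 0.000903). Hif1a, the oxygen-regulated factor, was at 749.9, 645 and 602 CPM under the KO label, against 1058, 1064 and 783 CPM under the WT label, with -0.54 from all 6 libraries (adjusted p = 0.342), and fell by 0.67 in the 5-library fit (adjusted p = 0.00321). Nmur1, the neuromedin U receptor, and Il1rl1, the IL-33 receptor, were at -1.48 and -0.74 with all 6 libraries (adjusted p = 0.342 for both) and fell by 1.82 and 1.00 in the 5-library fit (adjusted p = 0.000378 and 0.000527).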

How the data were processed

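The authors deposited estimated counts per gene and, in a second table, normalized signal. Tools named in the submitters' processing notes are CASAVA 1.8.2, Partek and STAR, on mm10, without roles. Strand use and the handling of multiply mapped reads are not stated there. Of the estimated counts, 47.1% to 48.5% per library were whole (within 1e-06). Each value of the deposited signal was an estimated count raised by 1 and scaled by a library factor of 31.2 to 36.0, and it served 1 alternative.

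After rounding, counts entered edgeR 4.0.16 under R 4.3.3 (TMM, filterByExpr, robust quasi-likelihood), KO against WT with no covariate, and Benjamini-Hochberg adjustment at 0.05 over all genes. DESeq2 1.42.0 and limma 3.58.1 gave alternatives. The procedure was tested on simulated data. Standard errors are the log2 difference divided by the square root of F, and distances used log2(CPM + 0.5). Floors cover counting error only. Exon lengths were the union of exons in GENCODE vM21, for 18009 genes, and gene positions come from the deposited table (mm10), ends less 1 base. Promoter windows are RefSeq's.

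The members and lists were chosen with earlier results of these data known. In each list the 2 tested genes with the lowest p and the 2 most abundant genes are named, besides the nearest genes in pattern (gene models without a given name and mitochondrial genes left out) and any gene said to be picked after its values were seen.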

Additional observations from a re-analysis of the deposited data

How the results depend on the processing

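With all 6 libraries, edgeR called 0 genes and 0 members under each other scaling, filter and dispersion setting tried, and so did limma-voom and limma-trend on the authors' signal. DESeq2 called 323 genes and 1 member, Rhbdf2 at -0.72. Leaving out 1 library gave 0 to 4991 genes and 0 to 2 members, where only the fit without the library labelled WT 3 called any. Over those fits the log2 difference ranged from -0.68 to -0.29 for Areg, -0.47 to 0.029 for Hbegf, which reversed without the library labelled KO 3, -0.23 to -0.13 for Adam17, -0.61 to -0.36 for Adam10 and -0.85 to -0.59 for Rhbdf2. Without both libraries numbered 3, 6505 of 14315 genes (45.4%) and 4 of 6 members tested were called. The log2 differences there were -0.43 for Areg, -0.27 for Adam17, -0.68 for Adam10, -0.905 for Rhbdf2 and 0.004 for Hbegf, again reversed. The cause was not tested. List members past the threshold numbered 0 with all 6 libraries and 32 of 60 without the library labelled WT 3, where 33.9% of all genes were called. With the longest transcript as gene length, the mean Areg share of the ligand pool under the KO label was 97.3% in place of 98.4%. Ereg has no value in the main comparison because it did not pass the filter.

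The replicate block, with the label's replicate number as a term, called 0 genes and 0 members. It gave -0.55 for Areg (SE 0.18, adjusted p = 0.346, edgeR), against an SE of 0.27 without the block. The numbers are not said to mark a shared litter or day. Deviations of same-numbered libraries correlated at -0.04, 0.02 and -0.01 over the genes tested, which cannot exclude a shared litter or day. For Areg the libraries labelled KO 3 and WT 3 were each the lowest of their label. Whether the numbers mark a batch was not tested. Depth limits Ereg, Tgfa and Btc, whose KO counts were at most 11 in any library.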

Other observations

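A transcript of airway club cells was high in the library labelled KO 2 and was picked out after its values were seen. Scgb1a1 was at 0, 15.0 and 0 CPM under the KO label, against 0, 0 and 0.232 CPM under the WT label. Among epithelial genes Epcam had 12.6, 13.7 and 8.90 CPM under the KO label, against 57.4, 52.3 and 14.3 CPM under the WT label, while the keratin gene Krt8 was at most 0.485 CPM in any library.

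Pecam1, an adhesion molecule of endothelium and some leukocytes, was at 107, 91.9 and 131 CPM under the KO label, against 10.4, 8.54 and 93.1 CPM under the WT label. The collagen genes Col1a1 and Col1a2 were at most 0.542 CPM in any library. Markers of macrophages and monocytes summed to 2.39 to 6.16 CPM under the KO label and 4.11 to 11.8 CPM under the WT label (6 of 7 markers measured), T cell markers to 8.69 to 13.6 CPM under the KO label and 5.60 to 8.42 CPM under the WT label (4 of 5 measured) and B cell markers to at most 0.654 CPM (2 of 3 measured). Of 5 neutrophil markers only S100a9 was measured, at most 0.312 CPM. The part of such cells in the results was not tested.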
